A study of Drosophila melanogaster with 7 samples.

Results

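The edges of H3K27me3 domains were studied for how close the mark of transcribed genes, H3K36me3, comes to them in wing imaginal discs of Drosophila melanogaster. H3K27me3 peaks were joined where the gap between them was at most 5000 bp, and the joined groups of 5 kb or more were taken as domains. These were 1215 of the 3800 joined groups, with 2430 edges, and they were set against the 5760 H3K36me3 peaks. The wing imaginal disc is a larval sheet of dividing epithelium from which the wing and part of the thorax develop. The discs came from larvae of the third instar, grown in standard medium, and the labels give neither strain nor genotype nor the number of discs pooled. The H3K27me3 and H3K36me3 profiles come from chromatin immunoprecipitation followed by sequencing (ChIP-seq), with 1 library each. The other 5 libraries of the study were H3K4me3, RNA polymerase II phosphorylated at serine 5 (Ser5P) or serine 2 (Ser2P), ASH2 and input DNA, of which the input was not analysed here.

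H3K27me3 is laid down by Polycomb repressive complex 2, whose catalytic subunit in flies is Enhancer of zeste, and it spreads over long domains that hold silent developmental genes. H3K36me3 is laid down by Set2, which travels with elongating RNA polymerase II, so that the mark lies over the bodies of transcribed genes and grows toward their ends. Nucleosomes methylated at lysine 36 are poor substrates for Polycomb repressive complex 2 in biochemical assays. The place where a domain ends and a transcribed gene begins is therefore a boundary between opposed states.

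The domains had a median length of 12446 bp (interquartile range 7543 to 25603.5) and covered 28.5 Mb, or 23.98% of the 119 Mb that the lists span. The longest measured 268 kb, and 389 domains were longer than 20 kb. The arms 3R and X held 360 and 343 of them, against 134 on 2L, 163 on 2R and 215 on 3L. The H3K27me3 list itself had 231 and 243 entries for each Mb of 3R and X, and 150 to 165 on the other arms. Only peak positions are given (build dm3), so the sequencing depth is unknown, and the mark may be present below the calling threshold where no peak is listed. No target has a replicate library. The ranges over the 5 chromosome arms give the spread within a list, and every test compares these 2 lists with each other, not with other discs.

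The first comparison asked how H3K36me3 is distributed on either side of an edge. H3K36me3 was scarce inside domains and immediately outside them, and it reached its highest level 4 to 6 kb away. In the first 1 kb outside, 3.31% of bases lay under an H3K36me3 peak, with a range over the arms of 1.49 to 4.91%. The share was 6.59% from 1 to 2 kb, 9.37% from 2 to 3 kb and 11.5% from 3 to 4 kb. From 4 to 5 kb it was 12.3% (arms 10.9 to 13.7), and from 5 to 6 kb it was also 12.3% (arms 11.05 to 13.9). Farther out it declined to 9.75% at 9 to 10 kb and 8.50% at 19 to 20 kb. These outside steps count all bases, including those in neighbouring domains. Counted over bases outside every domain only, the level was 12.8% at 5 to 6 kb and 12.1% at 9 to 10 kb. At 19 to 20 kb it was 11.7%, so on these bases it declined little. The arms thus followed a common course, and in each of them the level at 4 to 5 kb was higher than that in the first 1 kb.

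Inside the domains the level over all arms fell further, though not in every step and not on every arm. It was 2.86% in the first 1 kb, 1.64% from 4 to 5 kb and 0.678% from 9 to 10 kb, where 833 kb of sequence remained to be measured because shorter domains had ended. From 10 to 11 kb it was 1.17%. On 3R and X the first 1 kb inside was covered over 4.77 and 4.36%, against 0.295 to 0.766% on the other 3 arms. From 4 to 5 kb inside, the level was lower on 3R (2.64%), X (1.76%) and 2R (0.0419%). On 2L it was 0.601%, close to the 0.572% of its first 1 kb, and on 3L it rose from 0.295 to 1.64%.

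When the H3K36me3 list was moved along each arm by a random distance (a circular shift, which keeps the widths and spacing of its peaks), about 7.38% of bases were covered at every distance. By this shift permutation test, with Benjamini-Hochberg adjustment over the 40 steps of 1 kb, the deposited list was below the 10000 shifted lists in all 20 inside steps and in the first step outside (adjusted p = 0.000286 each), and above them in 15 outside steps. A list that avoids domains must be denser elsewhere, so a second kind of shift moved the peaks along arms from which the domains had been cut out. These shifts gave 9.49% in the first 1 kb outside and 9.48% from 4 to 5 kb. Farther out, where the steps reach into neighbouring domains, they fell to 7.69% at 9 to 10 kb and 6.92% at 19 to 20 kb. Against them, the deposited list was still lower in the first 2 steps outside, at 3.31 and 6.59%, and higher in 17 of the other 18 outside steps.

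**Figure D1:**
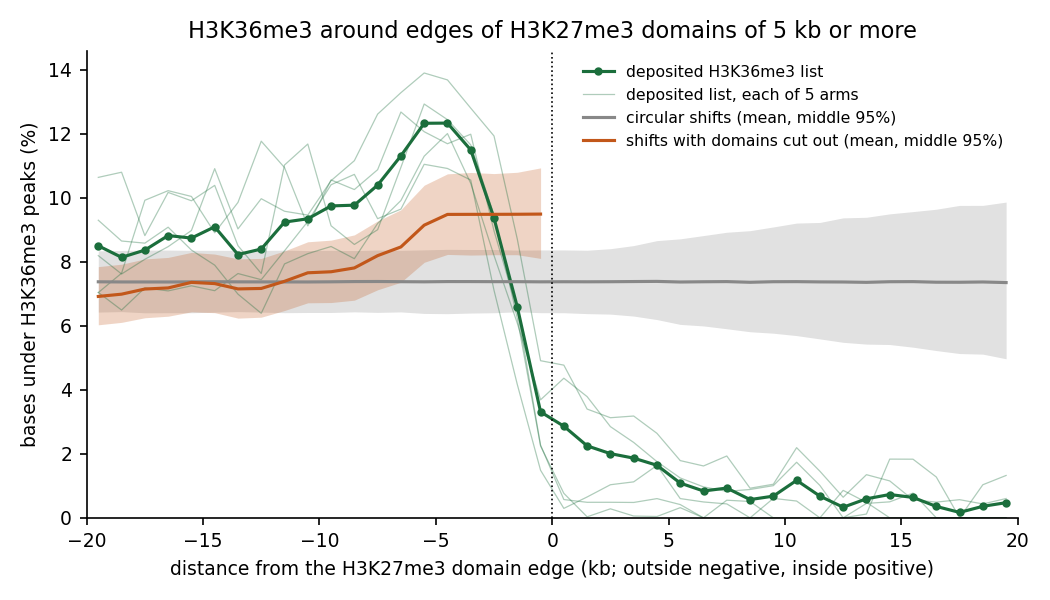
H3K36me3 around the 2430 edges of H3K27me3 domains, as the percentage of bases under H3K36me3 peaks in 1 kb steps against distance from the edge in kb (outside negative, inside positive). The deposited list (green, thin lines for the 5 arms) is at 3.31% in the first 1 kb outside and 12.3% from 4 to 6 kb outside, whereas circular shifts (grey) lie near 7.38% throughout and shifts with the domains cut out (orange) near 9.49% next to the edge.

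The joining rule shapes this course, since by construction no H3K27me3 peak lies within 5 kb outside an edge. With a joining gap of 1000 bp, which left 635 domains, the first 1 kb outside had 1.97% and the level from 3 to 4 kb was 6.23%, and no step was above the circular shifts. With a gap of 10000 bp the highest level was 15.0%, from 6 to 7 kb. With the gap of 1000 bp the level declined again to 4.28% from 8 to 9 kb and was highest at 19 to 20 kb, at 6.58%, so that the maximum close to the edge was not seen with that gap. The low level in the first 1 kb was seen with each of the 3 gaps.

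The second comparison measured the way from each edge outward to the first H3K36me3 peak. The median distance was 27879 bp (interquartile range 5134 to 88423), so most edges had no H3K36me3 peak nearby, and 9 edges had none farther out on their arm. H3K36me3 lay within 2 kb of 293 edges, or 12.1% (95% exact interval 10.8 to 13.4, arms 7.67 to 16.1). It lay within 5 kb of 601 edges, or 24.7% (23.0 to 26.5, arms 20.2 to 30.3), and within 10 kb of 814 edges, or 33.5% (31.6 to 35.4, arms 28.6 to 41.0). The intervals cover counting error only, and neighbouring edges can share a peak: the 814 edges led to 776 distinct peaks. The arm 3R had the shortest median distance, 17376 bp, and X the longest, 39692 bp.

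Circular shifts placed the first peak at a median of 38087 bp. They gave 13.8% of edges within 2 kb, 19.7% within 5 kb and 26.7% within 10 kb. The deposited list was therefore lower within 2 kb (adjusted p = 0.0186 in the shift permutation test, over 4 values), and higher within 5 and 10 kb (adjusted p = 0.000267 each). The call within 2 kb was lost without arm 2R (12.3 against 13.4%, adjusted p = 0.166 in the permutation test) and without 3L (a difference of -0.85 points, adjusted p = 0.308). Shifts with the domains cut out gave 17.8, 25.1 and 32.9%, and the median distance was 29669 bp. Against these, the lower share within 2 kb passed the permutation test (adjusted p = 0.0008), and those within 5 and 10 kb and the median did not (adjusted p = 0.774 each). In the cut-out shifts an edge touched by a moved peak has distance 0, and these calls changed when crossed edges were left out, as given below. Domains over 20 kb had 17.7% of edges within 2 kb, which was above circular shifts (by 3.98 points, adjusted p = 0.002 in the permutation test) and level with the median of the cut-out shifts, also 17.7%. The lower share was found at domains of up to 20 kb, with 9.38%, against 13.8% after circular and 17.8% after cut-out shifts. Over all edges the difference was -0.412 points within 5 kb, where the middle 95% of the shifted shares ran from 22.6 to 27.8%. With peaks joined over 1000 bp the shares within 5 and 10 kb, 13.2 and 18.03%, were below those of circular shifts, 19.7 and 26.8%.

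Sorting the edges by where the first H3K36me3 peak begins showed 2 opposite departures. Few edges were crossed by a peak, and many had their first peak 2 to 5 kb away. A peak crossed 88 edges, or 3.62%, against 7.37% after circular shifts and 9.47% after shifts with the domains cut out (permutation test, adjusted p = 0.00035 and 0.0007, over 7 classes). In the cut-out shifts no moved peak enters a domain. A peak that falls on a cut is split, and both edges of that domain count as crossed. The cut-out value thus counts edges touched by a peak, which is not the same event as a crossing in the deposited list. The first peak began over 2 and up to 5 kb out at 308 edges, or 12.7% (arms 10.9 to 14.2), against 5.84 and 7.37% after the shifts (permutation test, adjusted p = 0.00035 and 0.0007). At 1 to 2 kb the share was 4.73%, against 2.67 and 3.46% (permutation test, adjusted p = 0.00035 and 0.0084). Up to 1 kb it was 3.70%, against 3.74 and 4.81% (permutation test, adjusted p = 0.953 and 0.0409). At 5 to 10 kb it was 8.77%, against 7.08 and 7.78% (permutation test, adjusted p = 0.00504 and 0.107). At 10 to 20 kb it was 10.5%, against 10.3 and 9.84% (permutation test, adjusted p = 0.953 and 0.342). Beyond 20 kb lay 56.0%, against 62.9 and 57.2% (permutation test, adjusted p = 0.00035 and 0.432).

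Among the 2342 edges that no peak crossed, 8.75% had H3K36me3 within 2 kb, against 9.16% when crossed edges were also left out of the cut-out shifts (middle 95% 7.69 to 10.7, adjusted p = 0.623 in the shift permutation test), and 21.9% had it within 5 kb, against 17.4% (adjusted p = 0.004).

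**Figure D2:**
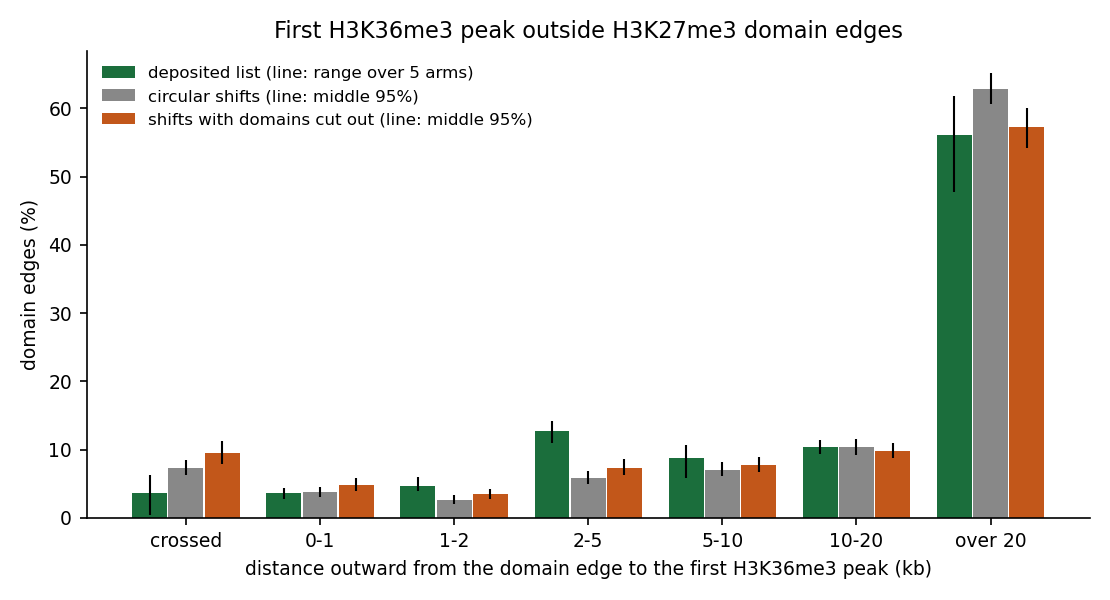
Percentage of the 2430 domain edges by the distance in kb to the first H3K36me3 peak outward, in the deposited list (green, line for the range over the 5 arms) and in 10000 shifted lists of each kind (grey circular, orange with the domains cut out, bars for medians and lines for the middle 95%). Crossed edges make up 3.62% of the deposited list and fewer than in either kind of shift, and edges with a first peak 2 to 5 kb away make up 12.7% and more than in either. In the orange lists, edges touched by a moved peak count as crossed.

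By arm, the share of crossed edges was 0.746% on 2L, 1.23% on 2R and 0.465% on 3L, where cut-out shifts gave 8.21, 10.6 and 8.84%. It was 6.25% on 3R and 5.10% on X, against 9.17 and 9.91%. The arms 3R and X held 80 of the 88 crossing peaks. With the H3K27me3 list reduced to its first 140 entries per Mb on each arm, 0.692% of all edges were crossed, against 8.93%. What the order of entries stands for is not given in the sources used here, so these entries may or may not be the strongest. The share of first peaks at 2 to 5 kb was above the median of the cut-out shifts on all 5 arms, by a factor of 1.44 on X to 2.12 on 2L. That excess did not pass the permutation test with a joining gap of 1000 bp (5.98 against 4.49%, adjusted p = 0.0979), whereas the deficit of crossed edges did (1.10 against 7.87%, adjusted p = 0.014). With a gap of 10000 bp the excess was found at 2 to 5 kb (14.8 against 7.77%) and also at 5 to 10 kb (12.6 against 8.71%, adjusted p = 0.0035 each in the permutation test). The distance of the excess thus changed with the joining gap.

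The third comparison asked whether long domains lie closer to H3K36me3 than short ones. Long domains, those over 20 kb, had it nearby more often than domains of 5 to 20 kb. H3K36me3 lay within 2 kb of 17.7% of the 778 edges of long domains and of 9.38% of the 1652 edges of short ones. Within 5 kb it lay at 30.7% of the edges of long and 21.9% of those of short domains, and within 10 kb at 38.9 and 30.9%. The differences of 8.36, 8.81 and 8.01 points were larger than those between the same edges after circular shifts (permutation test, adjusted p = 0.0004, 0.0004 and 0.000533). The median distances of 23588 and 30729 bp did not pass that permutation test (adjusted p = 0.0846), but they did against cut-out shifts (adjusted p = 0.015). Against cut-out shifts taken for each length class alone, the share within 5 kb was above the middle 95% for long domains (30.7%, shifts 21.1 to 29.3) and below it for short ones (21.9%, shifts 22.2 to 28.3). These cut-out shares include edges touched by a moved peak. Circular shifts gave 16.8 to 22.8% for long and 17.5 to 21.9% for short domains. The short domains thus lay at the upper limit of circular shifts, and whether they are short of H3K36me3 within 5 kb depends on the kind of shift.

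On each of the 5 arms the edges of long domains had the higher share within 2, 5 and 10 kb. The gap was widest on 2L, at 36.3 against 16.9% within 5 kb, and narrowest on X, at 26.3 against 21.3%. The share rose with every length class: within 5 kb it was 16.2% for groups of 2 to 5 kb, which were not counted as domains, 20.1% for domains of 5 to 10 kb, 24.6% for 10 to 20 kb, 27.5% for 20 to 50 kb and 37.4% for those over 50 kb. Around the last of these, H3K36me3 covered 5.49% of the first 1 kb outside and 19.2% of the bases from 3 to 4 kb, the highest value of any class. Crossed edges made up 2.38% for the groups of 2 to 5 kb, and 3.62, 3.04, 4.20 and 3.94% over the 4 classes of domains from short to long.

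The contrast between long and short domains was seen where an edge faced open space. Of the edges with no other domain within 20 kb, 40.7% of the 437 of long domains had H3K36me3 within 5 kb (95% exact interval 36.1 to 45.5), against 24.7% of the 963 of short ones (22.0 to 27.6). Of the edges with another domain within 20 kb, 17.9% of the 341 of long domains had it, against 17.997% of the 689 of short ones. The difference between these 2 settings was not tested. Among the edges with no other domain within 20 kb, 5.72% of those of long domains were crossed by H3K36me3, and 2.70% of those of short ones. With another domain within 20 kb the order was the opposite, at 2.05% for long and 4.35% for short domains.

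**Figure D3:**
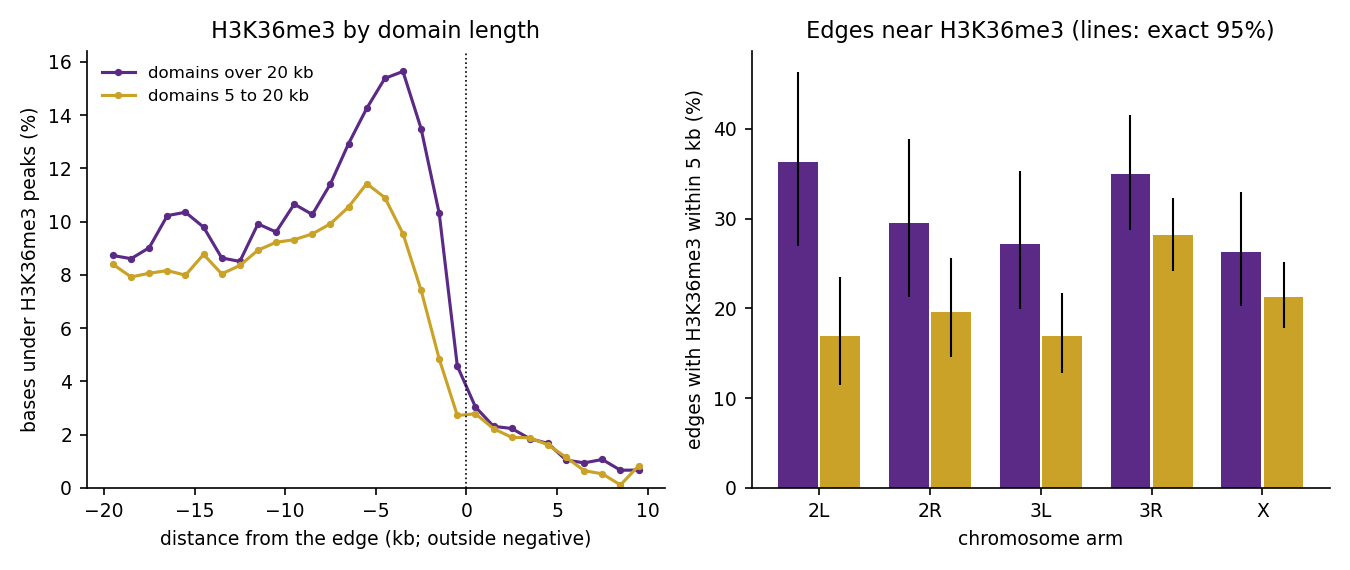
Left, percentage of bases under H3K36me3 peaks against distance in kb from the edge (outside negative) for domains over 20 kb (purple) and of 5 to 20 kb (yellow); the maxima are 15.6% at 3 to 4 kb and 11.4% at 5 to 6 kb. Right, percentage of edges with H3K36me3 within 5 kb on each arm, with exact 95% intervals: the domains over 20 kb are higher on all 5 arms.

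The longest domains illustrate the range. The longest, on 3R from 6253738 to 6521660, had its first H3K36me3 peak 12089 bp to the left and 64158 bp to the right. The second, on 2L from 14368772 to 14605179, had H3K36me3 3521 bp to its left and none for 400654 bp to its right. The next, on 2L from 21762696 to 21980556, was likewise uneven, with 3475 bp on the left and 141324 bp on the right. The fourth, on 3L from 12530964 to 12724137, was closely flanked on both sides, at 773 and 2479 bp. The fifth, on 2L from 11284982 to 11475930, had 1359 bp on the left and 20944 bp on the right. H3K36me3 was at 0 bases inside each of the 5. At the other extreme, the edge farthest from H3K36me3 was the right end of a domain at position 3103012 of 3R, with 533 kb to the first peak, and the next 4 lay on X with 494 to 529 kb. The paths of these 4 overlap within a single stretch of X without H3K36me3 peaks, so they are not separate examples. Each of these 5 paths ran through other domains. In all, 1080 edges (44.6% of those with a peak) met another domain of 5 kb or more before the first H3K36me3 peak, but only 4 of the 814 with a peak within 10 kb did.

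The left and right edge of each domain were also counted jointly. H3K36me3 lay within 5 kb of both edges of 121 domains (9.96%), of 1 edge of 359 (29.5%) and of neither edge of 735 (60.5%). Circular shifts gave 7.00, 25.3 and 67.7% (adjusted p = 0.0003, 0.0014 and 0.0003 in the shift permutation test, over 3 shares). Shifts with the domains cut out gave 16.6, 16.9 and 66.4% (adjusted p = 0.0003, 0.0003 and 0.001 in the permutation test, added after seeing the data), so the count of domains with H3K36me3 at both edges was below them. Cutting out a domain brings its edges to a single point, which by construction lets a shifted peak reach both. In circular shifts the share of single edges within 5 kb was also lower (19.7 against 24.7%), which by itself changes the joint counts. Neither kind of shift therefore decides whether the edges of a domain go together. Within 2 kb the order against circular shifts turned round, with 79.4% of domains having neither edge near H3K36me3, against 76.3% in shifted lists.

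Seen from the other side, the spaces of 5 to 50 kb between consecutive domains held less H3K36me3 at their ends than farther in. Of the 291 spaces of 5 to 10 kb, 43 held at least 1 whole H3K36me3 peak (14.8%, 95% exact interval 10.9 to 19.4). Of the 224 spaces of 10 to 20 kb, 77 did (34.4%), of the 288 of 20 to 50 kb, 188 did (65.3%), and of the 246 over 100 kb, 224 did (91.1%). In spaces of 5 to 10 kb, H3K36me3 covered 1.79% of the outermost 10% at either end and 7.39% of the middle 40%. In spaces of 10 to 20 kb these values were 4.49 and 12.3%, and in spaces of 20 to 50 kb 8.003 and 13.3%. Within the spaces of 20 to 50 kb the level did not peak at the centre: cut into 10 equal parts from left to right, they had 15.2, 14.6 and 15.8% in parts 2 to 4 and 11.1% in part 5. In spaces of 50 to 100 kb the ends and the middle were close, at 11.4 and 12.1%. In spaces over 100 kb they were 11.04 and 7.69%, so there the end parts, each more than 10 kb long, were the richer ones. Cut-out shifts gave 9.36 to 9.61% at both places for all of these lengths. Whole spaces of 5 to 10 kb were covered less than in the shifts (5.10%, middle 95% of the shifts 7.33 to 12.3), and those of 20 to 50 kb more (12.7%, 8.08 to 11.1).

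**Figure D4:**
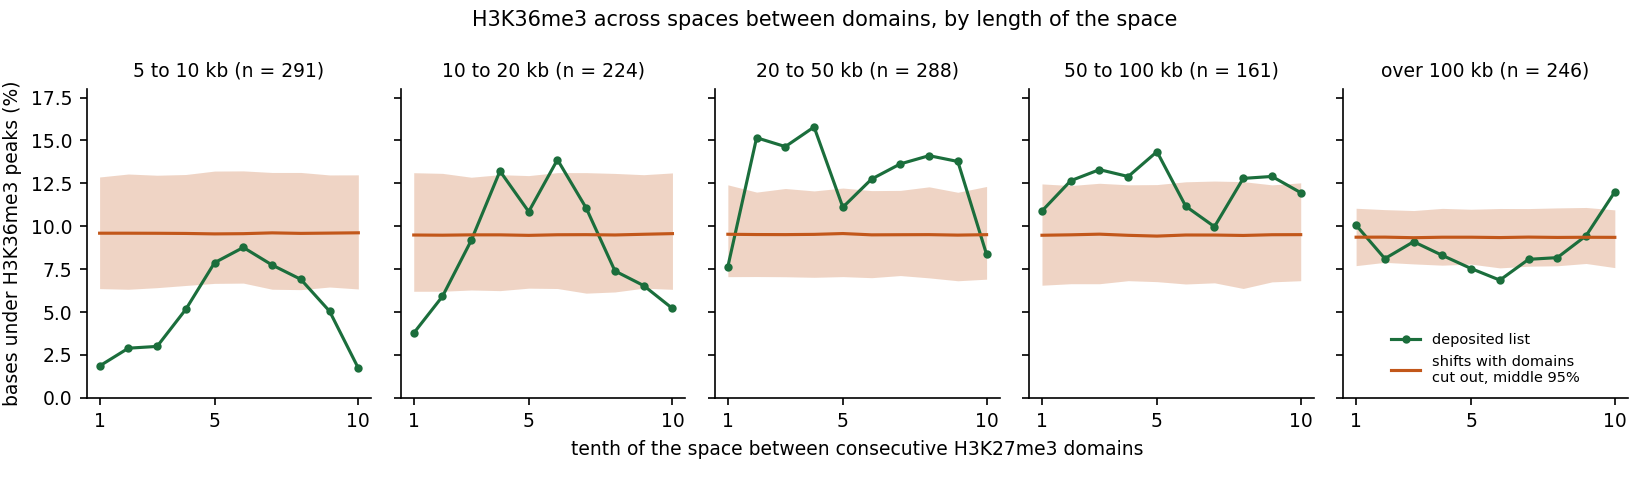
Percentage of bases under H3K36me3 peaks in each of 10 equal parts of the spaces between consecutive H3K27me3 domains, from the left to the right domain, by length of the space (n spaces each). In the deposited list (green) the end parts are lower than the inner parts in spaces of up to 50 kb, where those of 5 to 10 kb stay below the mean of the shifts throughout, and the ends are the higher part in spaces over 100 kb; the orange line and band are the mean and the middle 95% of 1000 shifts with the domains cut out.

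The shortest space with a whole H3K36me3 peak, on 3R from 10521016 to 10526211, measured 5196 bp between domains of 24673 and 23208 bp. Its peak of 1399 bp lay 3492 bp from the left domain and 305 bp from the right one. A space of 5479 bp on X, from 6484107 to 6489585, held a peak of 1059 bp with margins of 4068 and 352 bp. A space of 5654 bp on 3R, from 24365515 to 24371168, held a peak of 2303 bp that left 2152 bp on the left and 1199 bp on the right, between domains of 29090 and 55535 bp. A space of 5812 bp on 3R, from 16559969 to 16565780, held a peak of 1975 bp with margins of 2047 and 1790 bp. The fifth, of 5819 bp on 3R from 22767876 to 22773694, held 2 peaks with 3765 bp free on the left and 867 bp on the right. In these 5 spaces the smaller margin thus ran between 305 and 1790 bp. Over the 43 spaces of 5 to 10 kb, the median margin between a domain and the outermost whole peak was 2367 bp, and 19.8% of the 86 margins were under 1 kb.

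H3K36me3 inside domains was rare and on 3R and X, which held most of it, it lay mostly in gaps of the H3K27me3 list. Of the 1215 domains, 1059 (87.2%) held no H3K36me3, and of the 389 long ones 316 (81.2%) held none. In all, 261 of the 5760 H3K36me3 peaks touched a domain, of which 173 lay wholly inside and 88 crossed an edge. They covered 1.12% of the domain sequence, and 19.6% of that overlap lay directly under an H3K27me3 peak, whereas H3K27me3 peaks made up 37.8% of the domain sequence. These values were 15.5 and 34.7% on 3R, 16.7 and 30.4% on X and 36.1 and 47.6% on 2L. The order was the opposite on 2R, at 67.8 and 43.5% over 4.33 kb of overlap, and on 3L, at 45.8 and 40.8% over 22.5 kb. Of the 173 peaks wholly inside, 97 (56.1%) touched no H3K27me3 peak at all. The median distance of the 173 to the nearer edge was 3158 bp, and 66.5% were within 5 kb of it. No expected share was computed for either count, so both are descriptions. Here too the arms differed: 137 of the 261 peaks were on 3R and 93 on X, against 6 to 17 on each of the other arms. The domain over 20 kb with the most H3K36me3, on X from 6183736 to 6226201, was covered over 22.6%, by 4 peaks, and a peak crossed its left edge. The next, on X from 11877940 to 11940013, held 8 peaks over 13.0% of its length, with the first peaks outside it 72755 and 414147 bp away. The other 3 of the 5 domains with the most bases under H3K36me3 were on 3R from 5283740 to 5343965 (10.3%), on X from 329180 to 372997 (13.1%) and on 3R from 14173926 to 14221504 (11.4%). The most closely flanked domains were crossed by H3K36me3 at both edges. They lay on 3R from 15683007 to 15702530, from 1413281 to 1422995, from 23770102 to 23779615 and from 21085231 to 21091882, and on X from 12796324 to 12801882. H3K36me3 covered between 9.76 and 78.3% of them.

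The last part of the description concerns what lies between an edge and the first H3K36me3 peak. Of the 980 such spaces of up to 20 kb with no crossing, 77.8% overlapped an ASH2 peak (95% exact interval 75.02 to 80.3), 49.6% an H3K4me3 peak (46.4 to 52.8), 30.5% Ser5P and 29.8% Ser2P, and 17.04% overlapped none of the 4. A peak that reached only partly into a space was counted as present in it. ASH2 is a trithorax group protein and subunit of the lysine 4 methyltransferases, and H3K4me3 marks active promoters. Ser5P is the form of the polymerase typical of promoters, and Ser2P the elongating form. The ASH2 share rests on the label, since the catalogue number given for that antibody is one sold against the HA tag. An H3K4me3 peak was present in 43.3% of the 90 spaces of up to 1 kb and in 48.4% of the 308 of 2 to 5 kb. The share was highest, at 54.9%, in the 213 spaces of 5 to 10 kb, and it was 49.6% in the 254 of 10 to 20 kb. The other lists were found more often in the longer spaces, with ASH2 in 53.3% of those of up to 1 kb and 92.1% of those of 10 to 20 kb, and Ser5P in 12.2 and 39.4% of them. No expected share for spaces of these lengths was computed, so the shares are descriptions. Spaces with H3K4me3 had a median length of 4981 bp and those without it 4502 bp.

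The active lists were compared over the same steps. H3K36me3 and Ser2P both had their highest level at 4 to 5 kb, Ser2P with 5.88% of bases. H3K4me3 was nearly level from 1 to 5 kb, with 6.25% at 1 to 2 kb and 6.17% at 4 to 5 kb. Ser5P was highest at 3 to 4 kb (4.04%) and ASH2 at 1 to 2 kb (10.9%). In the first 1 kb outside, H3K36me3 stood at 0.381 times its mean level at 10 to 20 kb, compared with 0.529 for Ser2P, 0.765 for H3K4me3, 0.808 for Ser5P and 0.978 for ASH2. The level at 10 to 20 kb counts all bases, including those in other domains, where the lists are scarce to different degrees. At 9 to 10 kb inside domains, H3K36me3 was at 0.0916 times its share of the whole span. ASH2 was at 0.981 times its share there, and the other lists lay between. All of these are descriptions of lists with different peak widths and no test was made between them. Among the 951 edges with any of H3K4me3, Ser5P, Ser2P or H3K36me3 within 5 kb, H3K36me3 was met first at 26.3%, H3K4me3 at 27.02%, Ser5P at 23.3% and Ser2P at 14.7%, and 8.62% met several at an equal distance.

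**Figure D5:**
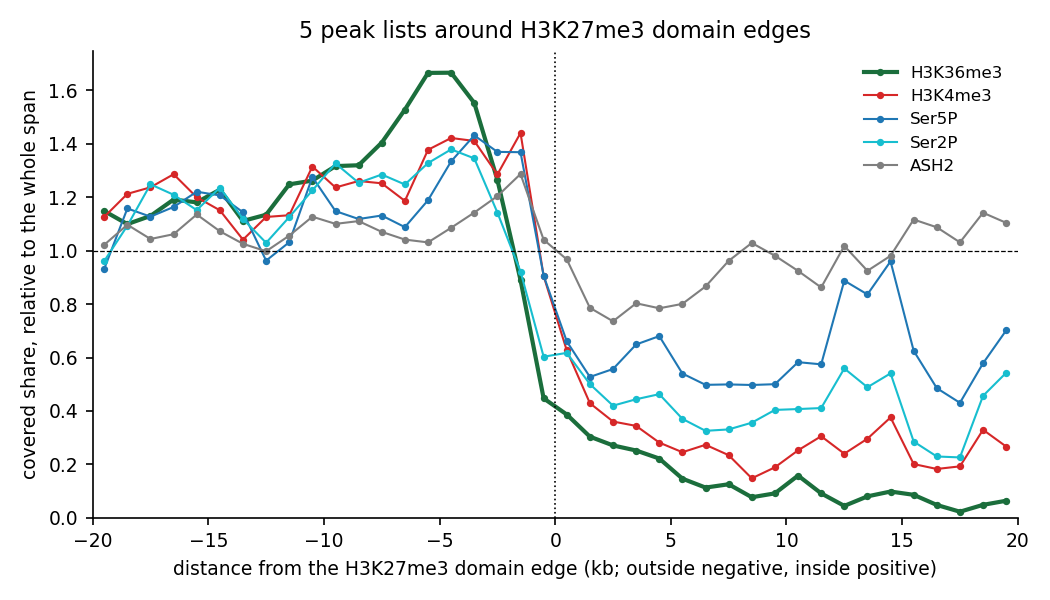
Covered share of 5 peak lists around the 2430 domain edges in 1 kb steps, each divided by its share over the whole span (dashed line at 1), against distance from the edge in kb (outside negative, inside positive). H3K36me3 has the lowest value in the first 1 kb outside and inside the domains and the highest at 4 to 5 kb outside, where it covers 12.3% of bases.

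An H3K36me3 block, made by joining peaks over gaps of up to 1000 bp, faces an edge with its near end, and an H3K4me3 peak within 1000 bp of an end tells at which end an active promoter may lie. Among blocks longer than 2000 bp, this was compared for those near to and far from an edge. Of the 121 blocks that began 1 to 2000 bp from an edge, 34 had H3K4me3 at both ends and 29 at neither. Of those with H3K4me3 at a single end, 39 had it at the near end and 19 at the far end, or 67.2% near (95% exact interval 53.7 to 79.0, n = 58). For blocks 2 to 5 kb away, 34 had it at the near and 47 at the far end, or 42.0% near (31.1 to 53.5, n = 81). For those 5 to 10 kb away the counts were 21 and 25, or 45.7% (30.9 to 61.0, n = 46), and for those 10 to 20 kb away 22 and 29, or 43.1% (29.3 to 57.8, n = 51). Taken over 1 to 5000 bp, the near share was 52.5% (43.9 to 61.0, n = 139). Ser5P, counted in the same way, was at the near end in 52.9% of blocks 1 to 2000 bp away (35.1 to 70.2, n = 34) and in 56.25% of those 2 to 5 kb away (41.2 to 70.5, n = 48). These distance classes were chosen with the data in view, and no test was made between them.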

How the data were processed

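Per the labels' protocols, chromatin of wing discs was immunoprecipitated and libraries were prepared for Illumina sequencing. The authors deposited 1 peak list for each of the 6 targets, with 3 columns (chromosome, start, end) and no score, on build dm3 per the submitters' processing notes. How reads were aligned and peaks called, and with which cut-off, is not given in the sources used here. Printed starts were raised by 1 bp. Groups came from the antibody in each label. The 108 H3K27me3 entries and 1 H3K36me3 entry with equal start and end were kept.

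Distances run from a domain edge to the near end of the first H3K36me3 peak outward (0 where a peak crosses). Inside steps run at most to the middle of the domain. Arms were taken to end at the last peak of any list. Shifts numbered 10000 (1000 for alternatives), with two-sided p values, a threshold of 0.05 and smallest p values of 0.0002 and 0.001998 before adjustment. In cut-out shifts, parts of H3K36me3 peaks inside domains stayed in place. Intervals are Clopper-Pearson. The distances and tests were tested on simulated lists with known answers. Python 3.11.15, NumPy 2.4.6, SciPy 1.17.1 and pandas 2.3.3 were used.

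The domains, positions and comparisons were chosen with earlier results of these data known. Named positions are the 5 longest domains, 5 farthest edges, 5 shortest spaces with a whole peak, 5 domains of 20 kb or more with the most H3K36me3, and 5 domains with the smallest sum of edge distances. Alternatives changed the joining gap, the minimum length, either list, the measured point, the edges, the shifts and the arms. Planned gene lists and gene names were not used, since the only annotation used here is not on dm3 coordinates.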

Additional observations from a re-analysis of the deposited data

How the results depend on the processing

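Values here are differences of the deposited from the shifted lists, in percentage points of edges unless bp are given. Of 160 alternative values in 31 settings, 116 kept their direction and their side of the threshold, or stayed within their stated error. The share within 2 kb was -1.24 with peaks joined over 10000 bp, 1.11 and 3.98 for domains of at least 10 and 20 kb, -2.003 with the wider 50% of the H3K27me3 list, 0.786 for edges with no other domain within 20 kb and -0.404 with crossed edges left out. It ran from -3.57 to -0.85 with each arm left out in turn. The median distance was -4807.5 bp with the wider 50% of the H3K27me3 list. With peaks joined over 1000 bp, the median was 13885.8 bp, the shares within 5 and 10 kb were -6.46 and -8.74, and 0 steps of the density were above the circular shifts. With the domains cut out, the median was -1790 bp, the shares within 5 and 10 kb -0.412 and 0.576, the long minus short median -10117 bp, and the classes up to 1 kb, 5 to 10 kb and over 20 kb -1.11, 0.988 and -1.19, with 2 outside steps below the shifts. The share of domains with both edges within 5 kb was then -6.67 points (also added later). With H3K27me3 groups of any length cut out (this setting, the omission of crossed edges and all distance classes were added after seeing the data), these were 1871 bp, -1.07, -0.947, -9874.25 bp, -1.28, 0.0823 and 0.905. Cut-out shifts with other lists gave, for a joining gap of 1000 bp, 0.157 at 1 to 2 kb, 1.496 at 2 to 5 kb, -0.315 at 5 to 10 kb and 4.57 over 20 kb. For a gap of 10000 bp they gave -1.67 both up to 1 kb and at 10 to 20 kb. For the wider 50% of H3K27me3 they gave 1.26 at 5 to 10 kb and -2.08 over 20 kb, for the first 140 entries per Mb 2.58 at 10 to 20 kb, and for the wider 50% of H3K36me3 -2.37 over 20 kb. Domains with 2, 1 and 0 edges within 2 kb of H3K36me3 differed by -0.329, -2.80 and 3.13 points. In spaces of up to 10 kb, Ser5P was present in 27.4% and ASH2 in 72.7%. The cause of these changes was not tested. The deficit of crossed edges passed the test in each cut-out setting run, where edges touched by a moved peak were counted as crossed. No paired analysis was possible because each target has 1 library.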
